A study of Homo sapiens with 2 samples.

Results

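The genes described here encode proteins of the Z-disc and M-band of the sarcomere, the repeating unit of striated muscle, together with proteins that help to build or maintain it. The list holds 42 genes, chosen by name with earlier results of these data known. Every probe set that the platform annotation assigns to 1 of these genes alone was read. FLNC and FHL1 had no such probe set, which left 40 genes with 86 probe sets, out of 19775 genes with 41091 probe sets on the array.

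In the sarcomere, the Z-disc anchors the thin actin filaments through α-actinin, the M-band links the thick myosin filaments at their centre, and titin spans the distance between them. Smaller proteins of the Z-disc tie the lattice to signalling and to desmin filaments, while chaperones and kelch proteins fold myosin and protect newly made thin filament proteins. In developing muscle, these genes are switched on as myoblasts leave the cell cycle and fuse. Several of them, among them DES, SYNM, SYNPO2, PDLIM3 and PDLIM5, are also used by smooth muscle or other cells.

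HUES9, a human embryonic stem cell line at passage 32, was differentiated as embryoid bodies, floating aggregates of cells, for 10 days. The aggregates were next allowed to attach to fibronectin, still in chemically defined medium, and the cells growing out of them were passaged. The treated culture (SB-OG) was given SB-431542, which blocks the kinase receptors through which TGF-β, activin and nodal signal, at 10 µM while the cells were embryoid bodies and at 1 µM in the outgrowth, and the control culture (control-OG) received the solvent DMSO at 0.01%. At outgrowth passage 5, RNA of 3 mixed samples per condition was read on 1 Affymetrix array, so there was 1 array per condition, no replicate and no test.

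Values are linear intensities as deposited. The background level of an array was taken as the 95th percentile over a panel of 213 probe sets whose genes belong to other organs, which gave 32.6 for control-OG and 27.6 for SB-OG. Each difference is the log2 intensity of SB-OG minus that of control-OG, with values under background set to it. A fold is therefore written "at least" where a gene was above background on 1 array only, and no fold is given where it was under on both. Unless stated otherwise, a gene is given by its brightest probe set. The only spread available is between probe sets of 1 gene, not between cultures, and it had an SD of 0.46 in log2 units over the array. This value understates the spread in the listed genes. Of 14 with several measurable probe sets, 11 had differences spread over more than 2-fold, with lower bounds taken at their value. The range was 6.79 in log2 units for NEB and 5.37 for MYOZ2, against 0.50 for KLHL41. Skeletal muscle markers were above background for 2 of 11 genes on control-OG and 11 of 11 on SB-OG, with summed intensities of 298 and 36551. Heart markers were above background for 1 of 10 genes on each array (NPPB on control-OG and NPPA on SB-OG), and NKX2-5, TBX5, MYH6, MYL7, MYL2, TNNI3, HCN4 and RYR2 were not on either. Smooth muscle markers were above background for 7 of 8 genes on control-OG and 8 of 8 on SB-OG, with summed intensities of 24860 and 23886. These sums are mostly ACTA2, TAGLN and ACTG2. Among the others, MYH11, the smooth muscle myosin, was at 8.93 and 1064, at least 32.6-fold higher. The differences of its 5 probe sets above background ranged from 0.87 to 5.03 in log2 units, and the one given was the highest. LMOD1 was 2.09-fold higher, while CNN1 was 1.57-fold, SMTN 1.42-fold and MYOCD 1.83-fold lower. Summed fibroblast markers, 9 of 9 above background on both arrays, were at 87342 and 35404, mostly from COL1A1, COL1A2, DCN and LUM. Of the 9, 7 were at least 2-fold lower, while POSTN was 1.37-fold lower and PDGFRB 2.07-fold higher. Summed epithelial markers were at 16527 and 461, mostly from KRT8, KRT18 and KRT19, with 3 of 6 above background on each array. KRT8 was 51.3-fold, KRT18 29.5-fold and KRT19 at least 178-fold lower. CDH1 was at 26.9 and 82.8, at least 2.54-fold higher, and EPCAM and CLDN4 were under background on both arrays. Endothelial markers were above background for 2 of 5 genes on control-OG and 1 of 5 on SB-OG (sums 1367 and 88.9), neuronal markers for 3 of 6 on each array (2853 and 1812, with STMN2 at 2606 and 24.3 and DCX at 32.5 and 1392), and pluripotency markers for 0 of 5 and 1 of 5 (62.0 and 188). The part of these cell types in the differences below was not tested. In such bulk RNA, more cells of a type and more RNA per cell cannot be told apart.

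Of the 40 genes, 16 were above background on both arrays, 19 on SB-OG only, none on control-OG only and 5 on neither. Thus 47.5% of the genes were seen on SB-OG only, against 6.19% of all 19775 genes. In SB-OG, 29 of the 40 genes passed 2-fold in the higher direction, none was 2-fold lower, and 5 could not be measured. Of the other 6, SYNM, PDLIM5 and SYNPO2 were within 2-fold by values above background on both arrays. ACTN3, CSRP3 and TCAP had only lower bounds under 2-fold, so they are not placed on either side of it. Of the 12499 genes that could be measured on either array, 12.4% passed 2-fold in the higher direction and 13% in the lower. A difference of 16-fold or more was reached by 18 of the 40 genes and by 1.14% of the 12499. The median difference was 4.13 over the 35 measured genes, with lower bounds taken at their value, and -0.02 over all measured genes. By role, 2-fold was passed by 2 of 2 titin and nebulin genes, 3 of 3 M-band genes, 3 of 3 genes for myosin-binding proteins, 6 of 6 assembly genes and 3 of 3 MURF genes. It was passed by 3 of 6 genes of the actinin, myozenin and telethonin group, 4 of 5 of the PDZ and palladin family group, 2 of 5 stretch and stress genes, 1 of 2 intermediate filament genes and 2 of 5 genes for actin-bundling and repeat proteins. A gene that passed background only on SB-OG had to come out higher or near 0, so the median describes the measured genes and not all 40. Among all genes past 2-fold, 48.9% were higher in SB-OG, and 77.1% were when the arrays were scaled on the spiked hybridisation controls, which added 0.48 to every log2 difference before the floor.

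**Figure D1:**
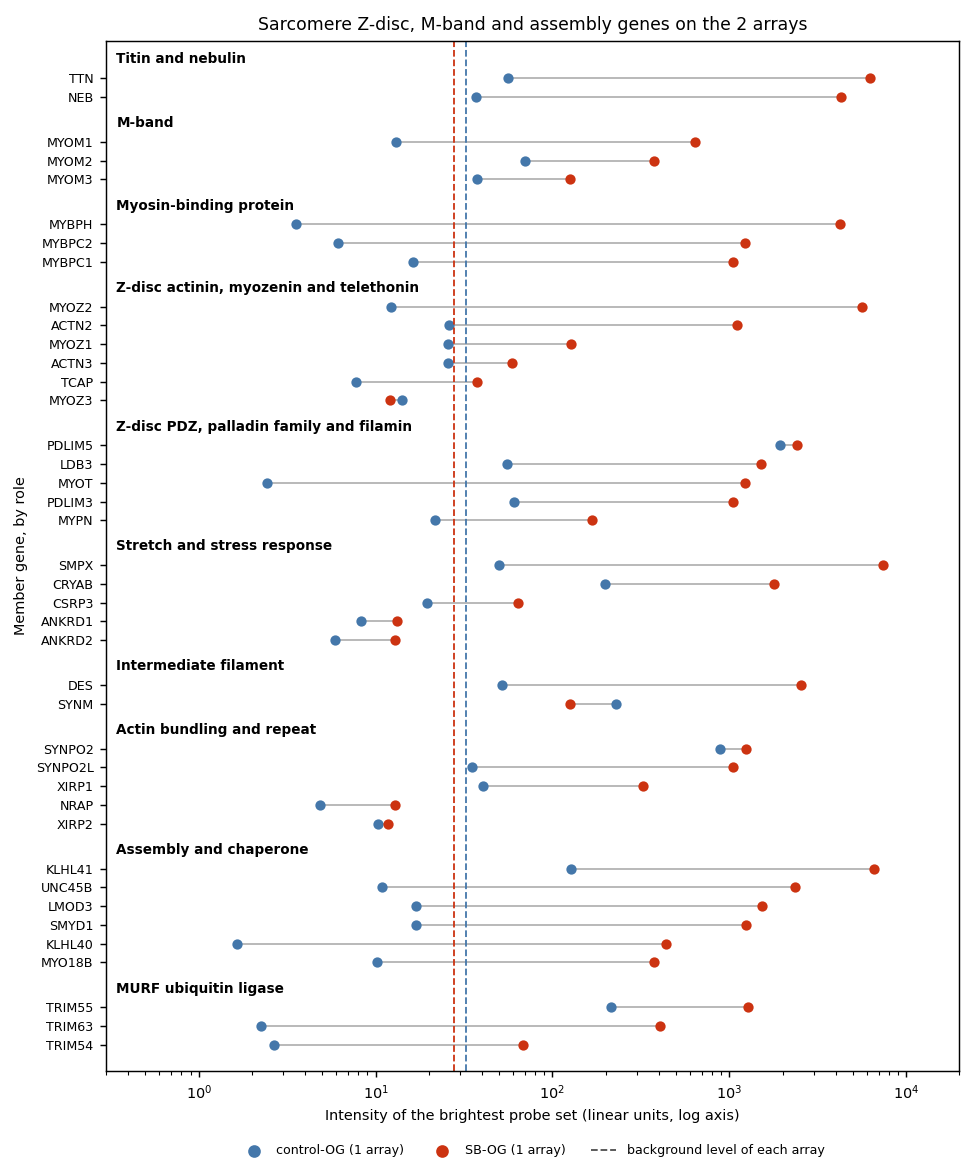
Intensity of the brightest probe set of each of the 40 genes on control-OG (blue) and SB-OG (red), 1 array each, on a log axis and grouped by role, with dashed lines at the background levels of 32.6 and 27.6. Blue points lie left of the blue line for 24 genes, SYNM is the only measured gene with the red point to the left of the blue one, and MYOZ3, ANKRD1, ANKRD2, XIRP2 and NRAP lie left of the lines on both arrays.

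The promoters of the listed genes, most of which were higher on SB-OG, were searched for motifs known from muscle gene promoters. MEF2 factors bind the MEF2 site, myogenic factors bind E-boxes, SRF binds the CArG box and TEAD factors bind the M-CAT site. RefSeq promoters (build GRCh38.p14) matched 32 of the 42 genes by symbol, and the 250 bases before the gene's start were searched on both strands for 5 motifs. Of these 32 genes, 22 were at least 2-fold higher, so the shares describe the list and not only the genes high on SB-OG. The MEF2 site was found in 9 of the 32 promoters (28.1%) and in 1.36% of 15843 promoters of protein-coding genes. The E-box CAGCTG, which reads the same on both strands, was found in 14 of 32 (43.8%) and in 13.3% of all, and both motifs together in 5 of 32 (15.6%) and 0.196% of all. The E-box CACCTG was found in 8 of 32 (25.0%) and 17.1% of all, the letters CATTCC of the M-CAT site in 8 of 32 and 10.1% of all, and the CArG box in LDB3 and MYOM1 only, against 1.14% of all. In the 32 promoters, 1 pair of matches to different motifs overlapped. A match is a run of letters and not a shown binding site. Of the 9 MEF2 site matches, 7 follow, with 10 bases on each side in lower case and the match in capitals, ordered by their distance to the gene's start.
KLHL40 (chr3:42685497-42685526, + strand): ccggccacctCTATATATAGcccctcgaag
KLHL41 (chr2:169509629-169509658, + strand): gagttggtatCTATATTTAGctagtgggat
MYOZ1 (chr10:73641527-73641556, - strand): ctcatcatctCTATTAATAAccaacttccc
SMPX (chrX:21758190-21758219, - strand): gtatcaaactCTATATTTAGgaagaacaac
XIRP1 (chr3:39192687-39192716, - strand): tccacaagacCTAAAAATAAccgaaccact
SYNPO2L (chr10:73656174-73656203, - strand): gaagtttgtaCTATAATTAGctctaggagt
TTN (chr2:178807571-178807600, - strand): ctttgaggtaCTAAATTTAGcactgtcaat

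All 9 genes with a MEF2 site match were among those past 2-fold, a description only, since 13 of the 16 measured genes without a match in this window were 2-fold higher too. The matches printed began between 30 bases (KLHL40) and 167 bases (TTN) before the start. Of the 32 promoters, 14 held neither a MEF2 site match nor a CAGCTG match. Whole windows follow for 3 genes that had such a match and were among the most different between the arrays. They are printed 5′ to 3′, with capitals for any of the 5 motifs.
KLHL41 (chr2:169509452-169509701, + strand): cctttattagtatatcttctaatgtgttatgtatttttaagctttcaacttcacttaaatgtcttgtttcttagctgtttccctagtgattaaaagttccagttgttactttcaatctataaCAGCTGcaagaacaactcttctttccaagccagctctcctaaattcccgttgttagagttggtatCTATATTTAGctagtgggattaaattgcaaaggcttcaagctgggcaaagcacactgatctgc
SMPX (chrX:21758117-21758366, - strand): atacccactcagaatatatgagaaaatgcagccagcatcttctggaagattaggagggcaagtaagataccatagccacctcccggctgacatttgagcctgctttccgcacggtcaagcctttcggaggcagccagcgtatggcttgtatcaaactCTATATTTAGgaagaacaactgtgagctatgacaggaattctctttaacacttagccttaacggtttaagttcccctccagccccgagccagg
MYBPH (chr1:203175827-203176076, - strand): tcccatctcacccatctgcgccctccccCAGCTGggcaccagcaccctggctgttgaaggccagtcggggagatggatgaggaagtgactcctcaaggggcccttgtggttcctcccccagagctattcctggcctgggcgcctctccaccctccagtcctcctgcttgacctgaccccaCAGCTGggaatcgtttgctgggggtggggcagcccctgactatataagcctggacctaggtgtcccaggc

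In the KLHL41 window the MEF2 site match begins 63 bases and the CAGCTG match 128 bases before the start. The SMPX window holds a MEF2 site match alone, and the MYBPH window 2 CAGCTG matches.

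Titin and nebulin, the giant proteins that span the thick and thin filaments, were among the most different genes. TTN gave 56.0 units of intensity on control-OG against 6207 on SB-OG, 111-fold higher. Its 3 other probe sets above background had control-OG values under background and gave at least 25.9-fold, 10.9-fold and 8.33-fold, and the remaining 2 were under background on both arrays. NEB was at 37.2 and 4301, 116-fold higher, from a control value just above the background level. The other NEB probe set was at 8.97 and 34.1, at least 1.05-fold higher, so the large difference rests on 1 of 2 probe sets.

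The M-band genes were higher to unequal degrees. MYOM1, encoding myomesin, which cross-links thick filaments, went from 13.1 in control-OG to 637 in SB-OG, a difference of at least 19.6-fold. MYOM2, the M-protein of fast and heart muscle, was at 69.6 and 375, 5.38-fold higher. MYOM3, another myomesin, was at 37.5 and 125, 3.33-fold higher, from a control value just above the background level. Its other probe set gave at least 1.96-fold. The myosin-binding proteins, which decorate the thick filament, were all under background on control-OG. MYBPH was at 3.56 and 4208, at least 129-fold higher and the seventh largest difference of all measured genes, with lower bounds taken at their value. MYBPC2, the fast skeletal form of myosin-binding protein C, was at 6.17 and 1233 (at least 37.8-fold), and MYBPC1, the slow skeletal form, at 16.4 and 1055 (at least 32.4-fold).

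At the Z-disc, ACTN2, the main α-actinin of striated muscle, was above background on SB-OG only with all 4 of its probe sets. The brightest read 25.9 in control-OG against 1103 in SB-OG, which is at least 33.8-fold higher, and the others gave at least 33.0-fold, 56.1-fold and 136-fold. ACTN3, the α-actinin of fast fibres, was at 25.7 and 59.1, at least 1.81-fold higher. The myozenins, which bind α-actinin and calcineurin, differed among themselves. MYOZ2, the form of heart and slow fibres, was at 12.2 and 5664, at least 174-fold higher. With lower bounds taken at their value, this was the second largest difference of all measured genes after MYH8. Without a floor, MYBPH (10.2) and MYOT (8.98) had larger log2 differences than MYOZ2 (8.86). Another MYOZ2 probe set gave at least 173-fold and the last at least 4.21-fold. MYOZ1, the form of fast fibres, was at 25.7 and 128, at least 3.93-fold higher. MYOZ3, also a form of fast fibres, was under background on both arrays with all 5 of its probe sets, the brightest at 14.1 and 12.1. TCAP, encoding telethonin, which caps titin at the Z-disc, was at 7.73 and 37.3, at least 1.15-fold higher.

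LDB3, encoding the PDZ and LIM protein ZASP, read 55.5 in control-OG against 1504 in SB-OG, 27.1-fold higher, and further probe sets gave 9.43-fold and at least 2.01-fold. PDLIM3, the α-actinin-associated LIM protein, was at 60.4 and 1055, 17.5-fold higher. Its other 2 probe sets were dim, at 36.5 and 45.3 on SB-OG, and gave at least 1.12-fold and 1.39-fold. MYOT, encoding myotilin, which binds actin and filamin C, was at 2.42 and 1222, at least 37.5-fold higher. MYPN, encoding myopalladin, which links nebulin to α-actinin, was at 21.7 and 168, at least 5.17-fold higher. PDLIM5, a PDZ and LIM protein also used outside muscle, was at 1934 and 2400.03, 1.24-fold higher.

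The probe sets of PDLIM5 fell into separate ranges. Of 7 above background on both arrays, 5 gave differences of 1.07-fold to 1.84-fold, and these had control-OG intensities of 247 to 1934. The other 2 were at 39.9 and 33.1 on control-OG, just above the background level. They were at 415 and 395 on SB-OG, 10.4-fold and 11.9-fold higher. SYNPO2, encoding an actin-bundling protein of the Z-disc and of smooth muscle, showed the same division. Its brightest probe set was at 887 and 1247, 1.41-fold higher, and others with control intensities of 292 and 613 gave differences of 0.32 and -0.04 on the log2 scale. The other 4 SYNPO2 probe sets, with control-OG intensities from 15.0 to 143, gave 2.29 and 2.72 and, as lower bounds, 2.63 and 3.28. Which transcript each probe set reads was not analysed here. Over all members, 51 of the 67 measurable probe sets (76.1%) passed 2-fold in the higher direction and none in the lower, against 12.7% and 12% of 23385 such probe sets on the array. Of the 67, 38 were above background on SB-OG only, so those could not come out 2-fold lower. Of 14 members with 2 or more measurable probe sets, 9 had all of them at least 2-fold higher, and SYNPO2 and PDLIM5 had measured probe sets on both sides of 2-fold. In NEB, PDLIM3 and MYOM3 the probe sets short of 2-fold gave only lower bounds, so those probe sets are not placed on either side. Only SYNPO2 had opposite signs.

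**Figure D2:**
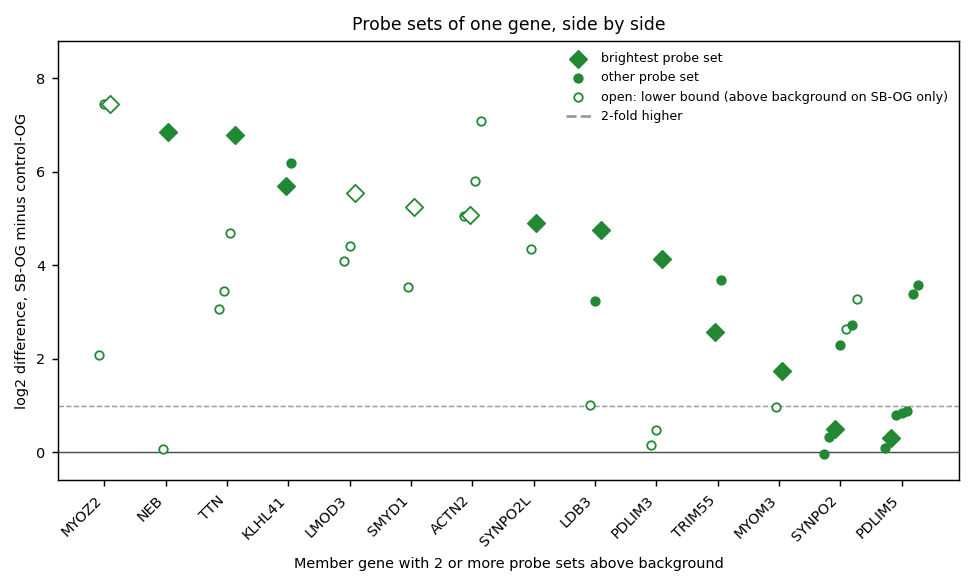
Differences on the log2 scale, SB-OG minus control-OG, of each probe set above background on at least 1 array, for the 14 genes with 2 or more of them. Diamonds are the brightest probe set, circles the others, open symbols lower bounds, and the dashed line marks 2-fold. The 2 NEB probe sets lie at 6.85 and 0.06, those of SYNPO2 from -0.04 to 3.28, and those of PDLIM5 from 0.10 to 3.58.

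The genes that respond to stretch or stress in muscle ranged from the fifth largest difference of all measured genes to no measurable level. This rank takes lower bounds at their value. SMPX, a small protein of the costamere region, read 50.2 in control-OG against 7379 in SB-OG, 147-fold higher. CRYAB, a small heat shock protein that protects desmin and titin, was at 199 and 1786, 8.95-fold higher, and was already well above background on control-OG. CSRP3, the muscle LIM protein, was at 19.7 and 63.8, at least 1.96-fold higher. ANKRD1 and ANKRD2, titin-bound ankyrin repeat proteins made in stretched or injured muscle, were under background on both arrays, at 8.30 and 13.3 and at 5.86 and 12.9.

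The differences of the intermediate filament genes had opposite signs. DES, the muscle filament protein that ties Z-discs together, read 51.7 in control-OG against 2550.3 in SB-OG, 49.3-fold higher, and a second probe set was under 1 on both arrays. SYNM, encoding synemin, which joins desmin and vimentin filaments to actin-linked proteins, was at 229 and 125, 1.83-fold lower. SYNM was the only measured member with a negative difference (-0.87), and the difference stayed negative under each alternative setting, between -0.97 and -0.39. Among the actin-bundling and repeat proteins, SYNPO2L was at 35.1 and 1053 (30.0-fold higher) and XIRP1, which binds actin at developing myofibrils, at 40.3 and 327 (8.12-fold higher). The control value of SYNPO2L was just above the background level, and its other probe set gave at least 20.5-fold. XIRP2, a relative of XIRP1, was at 10.3 and 11.7, and NRAP, a scaffold of myofibril assembly, at 4.84 and 12.9 in its brightest of 3 probe sets, both under background.

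The genes for sarcomere assembly were higher in SB-OG for 6 of 6 members, and all but KLHL41 were under background on control-OG. KLHL41, a kelch protein of skeletal muscle, was at 127 and 6590.4, 51.9-fold higher, and its other probe set gave 73.3-fold. UNC45B, the chaperone of muscle myosin, was at 10.8 and 2360.5, at least 72.4-fold higher. LMOD3, a leiomodin that nucleates thin filaments, was at 17.0 and 1530 (at least 46.9-fold), and its other probe sets gave no less than 17.0-fold and 21.4-fold. SMYD1, a muscle methyltransferase that acts with UNC45B in myosin assembly, was at 17.0 and 1244, at least 38.2-fold higher, and at least 11.6-fold by its other probe set. KLHL40, which stabilises nebulin and LMOD3, was at 1.65 and 441 (at least 13.5-fold), and MYO18B, an unconventional myosin needed for sarcomere formation, at 10.2 and 376 (at least 11.5-fold). The MURF ubiquitin ligases, which sit at the M-band and Z-disc and mark muscle proteins for breakdown, were higher too. TRIM55 was at 214 and 1272 (5.93-fold, and 12.9-fold by its other probe set), TRIM63 at 2.27 and 407 (at least 12.5-fold) and TRIM54 at 2.65 and 67.8 (at least 2.08-fold). The lower bound of TRIM54 was just under 2-fold after quantile or lowess normalization, at 0.96 and 0.98 on the log2 scale.

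The other genes of the sarcomere, mostly of the thick and thin filaments, were mostly higher too where they could be measured. Of 38 genes listed, 31 had a probe set and 21 could be measured. Of these 21, 16 passed 2-fold in the higher direction (76.2%, against 82.9% of the 35 measured members) and 1 in the lower (median 4.31). Among genes with a probe set, 29.0% were seen on SB-OG only, against 47.5% of the members. The largest differences, with lower bounds taken at their value, were in MYH8 (at least 258-fold), TNNI1, TNNC2, ACTA1 (at least 106-fold), MYH3 and TNNI2. TPM1 was the gene 2-fold lower, with other probe sets up to 3.77 in the other direction, and it was within 2-fold after quantile or lowess normalization. Under background on both arrays were MYH1, MYH4, MYH6, MYH13, MYL2, MYL3, MYL7, TNNI3, CMYA5 and MYLK2.

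Relatives of the members that were listed for use in non-muscle or smooth muscle cells, whether or not striated muscle uses them too, showed another distribution. Of 25 such genes, 22 had a probe set, all 22 were above background on both arrays, 5 passed 2-fold in the higher and 5 in the lower direction. The median difference of these 22 was -0.14, which became 0.34 when the arrays were scaled on the hybridisation controls. The non-muscle α-actinin genes ACTN1 and ACTN4 were at 4713 and 858 on control-OG and 2484 and 642 on SB-OG, 1.90-fold and 1.34-fold lower, and ACTN4 turned higher with that scaling. The 3 ACTN1 probe sets ranged from -2.55 to -0.92 on the log2 scale. UNC45A, the general myosin chaperone, was at 186 and 169, where UNC45B differed by at least 72.4-fold. NEBL, the nebulin relative nebulette, was at 211 and 37.0, 5.71-fold lower, opposite to NEB. This was the largest difference of 5 NEBL probe sets, which ranged from -2.51 to -0.71 on the log2 scale. SYNPO, the relative of SYNPO2 and SYNPO2L, was at 588 and 81.5, 7.22-fold lower. SMYD3 was at 1569 and 280.1, 5.60-fold lower, and CSRP2, a LIM protein of smooth muscle and mesenchyme, at 10860 and 3664, 2.96-fold lower. PDLIM2 was 3.01-fold lower. The 5 higher genes were NES, PDLIM7, PDLIM4, CSRP1 and LMOD1. NES, an intermediate filament gene of progenitor cells, including muscle progenitors, was at 321 and 8535, 26.6-fold higher. Its 2 probe sets gave 4.73 and 1.92 on the log2 scale. PDLIM7 was at 271 and 1822, 6.71-fold higher, but its probe sets ranged from -0.98 to 2.75, and those of PDLIM4, 3.99-fold higher by the brightest, reached down to -0.14. VIM, the filament gene of mesenchymal cells, was at 16414 and 10378, 1.58-fold lower, but its other probe set gave 0.05 on the log2 scale. HSPB1, a relative of CRYAB, was at 6437 and 6483.

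**Figure D3:**
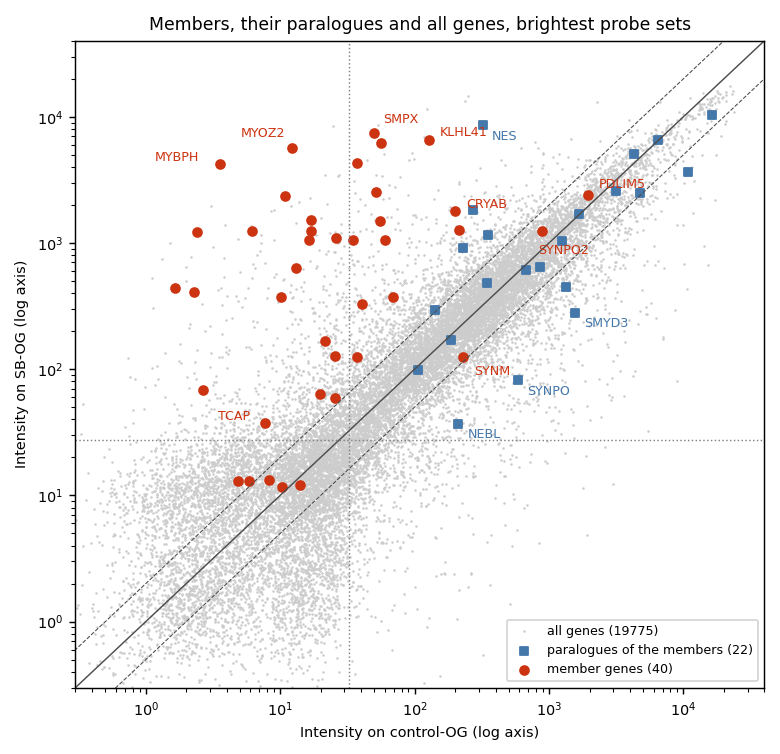
Intensity on control-OG (x axis) and SB-OG (y axis), both on log axes, of all 19775 genes (grey), the 40 member genes (red circles) and 22 relatives of the members (blue squares), with the line of equal intensity, dashed lines at 2-fold and dotted lines at the background levels. Most red circles lie at the upper left, at low control-OG intensity and high SB-OG intensity, and 12 of the 22 blue squares lie between the 2-fold lines, with NES farthest above and SYNPO farthest below.

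**Figure D4:**
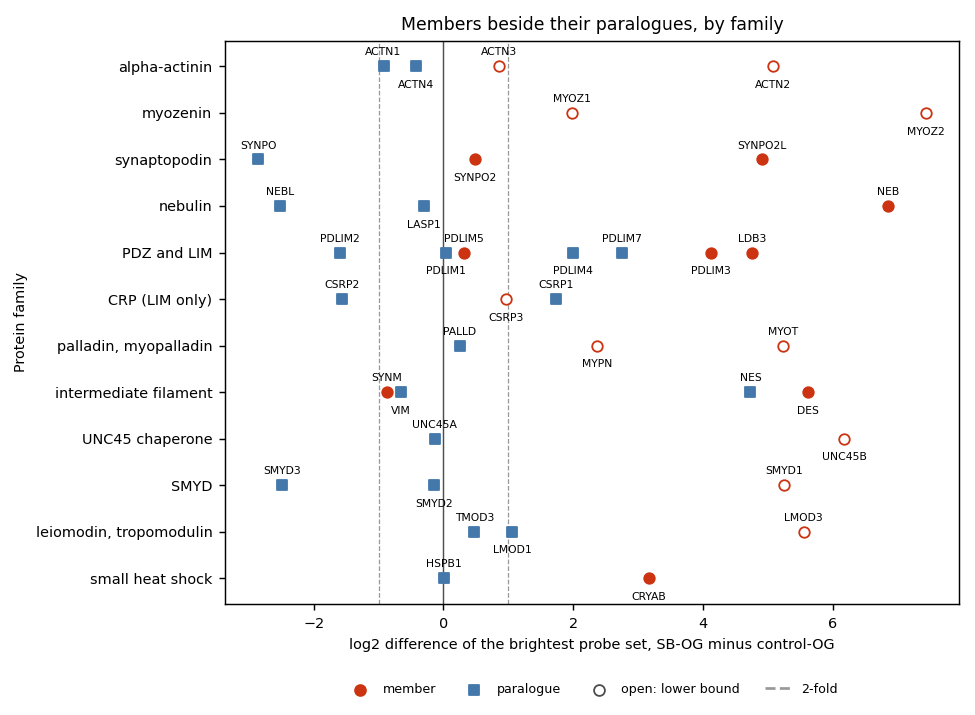
Difference on the log2 scale of the brightest probe set, SB-OG minus control-OG, for members (red circles) and relatives (blue squares) by protein family, with open symbols for lower bounds and dashed lines at 2-fold; genes under background on both arrays are left out. In the UNC45 family the values are 6.18 for UNC45B and -0.14 for UNC45A, and in the nebulin family 6.85 for NEB, -0.30 for LASP1 and -2.51 for NEBL.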

How the data were processed

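RNA of 2 cultures was labelled and read on 1 Affymetrix array each. The authors deposited a linear intensity for each of 54675 probe sets on each array. How these were summarised is not stated in the sources at hand. Without the lowest and highest 2%, the mean was 149.98 on each array, so both appear scaled to one level, which would hide a difference in total RNA. The arrays' median log2 values differed by -0.05, and no further normalization was applied.

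Gene names came from the platform annotation, with symbols updated by gene ID (assembly GRCh38.p14), and probe sets of several genes were left out. The panel for the background level held 172 genes: olfactory receptors, taste receptors, late cornified envelope genes, beta-defensins and keratin-associated proteins. The brightest probe set of a gene is the one whose log2 intensity, averaged over both arrays, was highest. The SD between probe sets came from 4930 genes. With 1 array per condition no test was made, and precision is limited by having 1 array per side. The members, the gene lists and the rule to name every member were chosen with earlier results of these data known. As alternatives, the arrays were quantile normalized, corrected by lowess (span 0.4), centred, or scaled on 18 hybridisation control probe sets. Genes were also taken as the mean of their probe sets, or from specific probe sets alone (no _s, _x or _a suffix). The floor was dropped, replaced by a pseudocount of 16 or set at the panel's 99th percentile, and the threshold was raised to 3-fold. Some promoter sequences are not reported here. The calculation was tested on simulated data. Python 3.11.15, numpy 2.4.6, pandas 2.3.3 and statsmodels 0.14.6 were used.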

Additional observations from a re-analysis of the deposited data

How the results depend on the processing

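The count of members at least 2-fold higher was 28 to 32 under each alternative but the specific probe sets (no _s, _x or _a suffix), which gave 21 of 27. No member was 2-fold lower under any of them, and no member past 2-fold changed sign. The members' median was 4.60 with scaling on hybridisation controls, 3.53 with the mean of all probe sets, 3.16 with specific probe sets and 5.21 without a floor. The lower bound of TRIM54 was under 2-fold with quantile (0.96) and lowess (0.98) normalization, and that of PDLIM3 with specific probe sets (0.16), where its bright probe set is not used. PDLIM5 and SYNPO2 passed 2-fold with the mean of all probe sets (1.41 and 1.67). CSRP3, ACTN3 and TCAP reached 1.70, 1.20 and 2.27 without a floor, and with TRIM54 they were under the higher background on both arrays. For the other sarcomere genes, the count 2-fold lower was 0 with quantile, lowess and hybridisation control scaling, the mean of all probe sets, specific probe sets and 3-fold. Their median was 4.78 with hybridisation control scaling, 5.89 with specific probe sets, 5.57 without a floor, 4.89 with the higher background and 4.89 with the pseudocount. For the relatives, 3 were higher with the mean of all probe sets, 2 higher and 3 lower with specific probe sets, and the median was 0.34 with hybridisation control scaling. Over all genes, 3045 were higher and 906 lower with hybridisation control scaling, against 1554 and 1626, and 791 and 795 at 3-fold. The cause of these changes was not tested, apart from fewer genes under the specific probe sets and the higher bar of 3-fold. No paired analysis was possible because each condition has 1 array.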

Other observations

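The myozenin and synaptopodin genes stand next to each other in the genome, with 0 protein-coding genes between MYOZ1 and SYNPO2L, between SYNPO2 and MYOZ2, and between SYNPO and MYOZ3 in the RefSeq gene order. MYOZ2 was at least 174-fold higher beside SYNPO2 at 1.41-fold by its brightest probe set. SYNPO2L was 30.0-fold higher beside MYOZ1 at no less than 3.93-fold. SYNPO was 7.22-fold lower beside MYOZ3, which was under background on both arrays.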
